A study of Mus musculus with 6 samples.

Results

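Collagen genes were defined as every symbol made of Col, digits, the letter a and digits, and 44 of the 31053 genes in the count tables matched. Their transcripts were measured in fibroblast-like, mural, endothelial-like and Schwann-like cells from the borders of the mouse brain, and mural cells were pericyte-like cells and vascular smooth muscle-like (VSMC-like) cells. The study profiled single cells of these tissues with the 10x Genomics system, which counts each captured mRNA by a unique molecular identifier (UMI). All 6 libraries came from adult C57BL6 mice of either sex, and the labels name no allele, transgene or treatment. The 4 cortical surface-associated libraries (CSA1 to CSA4, labelled as brain) held the brain surface with its leptomeninges. The 2 bone-associated libraries (BA1 and BA2, labelled as dura or skull) held the tissue lining the inner face of the skull. Every library pooled tissue of several mice, so the library was the replicate, the spread between mice was not seen, and p-values measure the spread between libraries, which may be technical. For each library the labelled protocol gives papain digestion of the ventricular-subventricular zone, whereas the study's methods describe collagenase D and dispase II. Libraries were therefore assigned by their labelled tissue.

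Collagens are triple-helical matrix proteins built from 3 chains, which come from the same gene or from different genes depending on the type. Fibrillar collagens (types I, III, V, XI, XXIV and XXVII, and type II of cartilage) form the tension-bearing fibres of connective tissue. Fibril-associated collagens such as types IX, XII, XIV and XVI sit on those fibres, and type VI forms beaded filaments around cells. Type IV is the network of every basement membrane, types XV and XVIII are multiplexins of vascular basement membranes, and type VIII forms hexagonal networks under endothelium and in vessel walls. Types XIII, XVII, XXIII and XXV span the cell membrane. The leptomeninges are a thin, soft covering of the brain, whereas the dura is a dense fibrous sheet attached to bone.

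Upstream sequences are shown for 6 members that differed between the preparations in fibroblast-like cells, 3 in each direction, with values given further on. Col3a1, Col6a5 and Col8a1 were higher in bone-associated and Col4a6, Col13a1 and Col23a1 were higher in cortical surface cells. Each run is the 250 bases before the annotated start, 5′ to 3′ on the strand of the gene, from RefSeq on GRCm38.p6. Capitals mark the TATA box letters TATAAA, the GC box letters GGGCGG and the CCAAT box letters CCAAT, each searched on both strands, so that CCGCCC is the GC box letters read on the other strand.
Col3a1, chr1:45311288-45311537, plus strand: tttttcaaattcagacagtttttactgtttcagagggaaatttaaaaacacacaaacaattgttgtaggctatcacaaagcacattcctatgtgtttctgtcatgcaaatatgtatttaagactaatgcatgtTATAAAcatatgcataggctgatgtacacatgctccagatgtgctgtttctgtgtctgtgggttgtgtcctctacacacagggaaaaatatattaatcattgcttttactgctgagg
Col6a5, chr9:105960644-105960893, minus strand: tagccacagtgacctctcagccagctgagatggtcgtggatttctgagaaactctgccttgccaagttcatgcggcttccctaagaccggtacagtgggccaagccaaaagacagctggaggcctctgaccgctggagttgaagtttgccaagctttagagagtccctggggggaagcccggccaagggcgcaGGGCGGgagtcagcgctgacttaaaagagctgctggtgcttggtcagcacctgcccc
Col8a1, chr16:57754738-57754987, minus strand: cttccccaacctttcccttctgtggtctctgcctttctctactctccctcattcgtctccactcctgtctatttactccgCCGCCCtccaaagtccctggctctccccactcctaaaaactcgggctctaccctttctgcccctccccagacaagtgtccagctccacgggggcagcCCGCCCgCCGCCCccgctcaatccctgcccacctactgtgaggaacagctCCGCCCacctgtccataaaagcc
Col4a6, chrX:141474077-141474326, minus strand: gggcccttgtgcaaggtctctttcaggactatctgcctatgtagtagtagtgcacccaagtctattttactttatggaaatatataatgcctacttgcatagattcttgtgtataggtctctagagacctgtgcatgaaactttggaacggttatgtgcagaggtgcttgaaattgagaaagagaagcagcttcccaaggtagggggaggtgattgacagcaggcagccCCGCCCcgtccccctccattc
Col13a1, chr10:61979109-61979358, minus strand: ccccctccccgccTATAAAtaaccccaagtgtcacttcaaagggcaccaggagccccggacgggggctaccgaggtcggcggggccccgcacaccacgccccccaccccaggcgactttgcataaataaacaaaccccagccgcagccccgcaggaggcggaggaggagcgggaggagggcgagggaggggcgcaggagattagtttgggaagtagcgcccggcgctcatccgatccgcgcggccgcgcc
Col23a1, chr11:51289670-51289919, plus strand: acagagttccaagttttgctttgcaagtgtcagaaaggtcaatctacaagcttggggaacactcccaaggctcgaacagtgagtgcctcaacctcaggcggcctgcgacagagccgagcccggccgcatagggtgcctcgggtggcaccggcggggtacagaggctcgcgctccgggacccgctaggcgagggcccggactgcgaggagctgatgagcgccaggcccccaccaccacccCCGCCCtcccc
The GC box letters stood in 4 places in the Col8a1 sequence and in 1 place each in those of Col6a5, Col4a6 and Col23a1, and the TATA box letters stood in those of Col3a1 and Col13a1. Over such runs of 250 bases before the start, 38 promoters of 35 members were found. The GC box letters were in 57.9% of them, against 32.7% of all 32851 promoters. The CCAAT letters were in 34.2% against 33.8%, and the TATA letters in 13.2% against 12.4%. These are matches of letters and were not tested as sites.

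From 8680 cells kept, classes were named from marker genes that held no collagen, and collagens took no part in the clustering. Fibroblast-like cells (Pdgfra, Dcn, Lum and others) numbered 79, 146, 34 and 23 in CSA1 to CSA4 and 22 and 180 in BA1 and BA2. Pericyte-like cells (Abcc9, Kcnj8, Rgs5) numbered 100, 151, 60 and 183 and then 35 and 128, and endothelial-like cells (Pecam1, Cdh5, Flt1) 73, 189, 79 and 200 and then 125 and 328. The endothelial marker Cldn5 was raised in clusters CSA-5, CSA-13, CSA-24 and BA-9. It was not raised in BA-3, BA-18 and CSA-37 (217, 106 and 11 cells). In pericyte-like cluster BA-14.2 (32 cells), Abcc9, Kcnj8 and Rgs5 were the only pericyte markers raised. VSMC-like cells (Acta2, Myh11, Tagln) came from CSA1 and CSA2 alone in the cortical surface preparation, with 101 and 159 cells, and from BA1 and BA2 with 129 and 163. Clusters that mixed VSMC and pericyte markers were left unnamed and entered no class. They were BA-6.1 to BA-6.4 (53, 50, 29 and 25 cells) and CSA-25.1 to CSA-25.3 (32, 22 and 21 cells). CSA-25.1 held 3 cells of CSA3 and 14 of CSA4. Schwann-like cells (Sox10, Cdh19, Kcna1) were named in BA1 and BA2 alone, with 15 and 69 cells. Hemoglobin transcripts made up 84.6% and 71.9% of the UMIs of CSA3 and CSA4 and at most 0.52% elsewhere, and were left out of every total. The median depth of a kept cell ran from 5468 to 9556 UMIs over the libraries. Any 2 libraries shared at most 2 cell barcodes.

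Levels are given as CPM, the UMIs of a gene scaled to a total of 1000000 UMIs of the class in a library. The reads tag the 3′ end of each molecule, so levels count molecules and were not divided by gene length. A member was described in every library if its mean reached 50 CPM in at least 1 class of 1 preparation, and 28 of the 44 did. Bone-associated fibroblast-like cells held the highest mean of 9 of the 28, cortical surface fibroblast-like cells of 6, Schwann-like cells of 6, bone-associated pericyte-like cells of 4, cortical surface pericyte-like cells of 2 and bone-associated endothelial-like cells of 1. T or NK-like cells, which make little collagen, served as the background of free RNA. There all collagens together came to 11.0 to 23.4 CPM, and the highest single value was 7.42 for Col18a1 in CSA1, which rests on 2 UMIs. In B-like cells all collagens together came to 13.6 to 73.6 CPM.

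**Figure D1:**
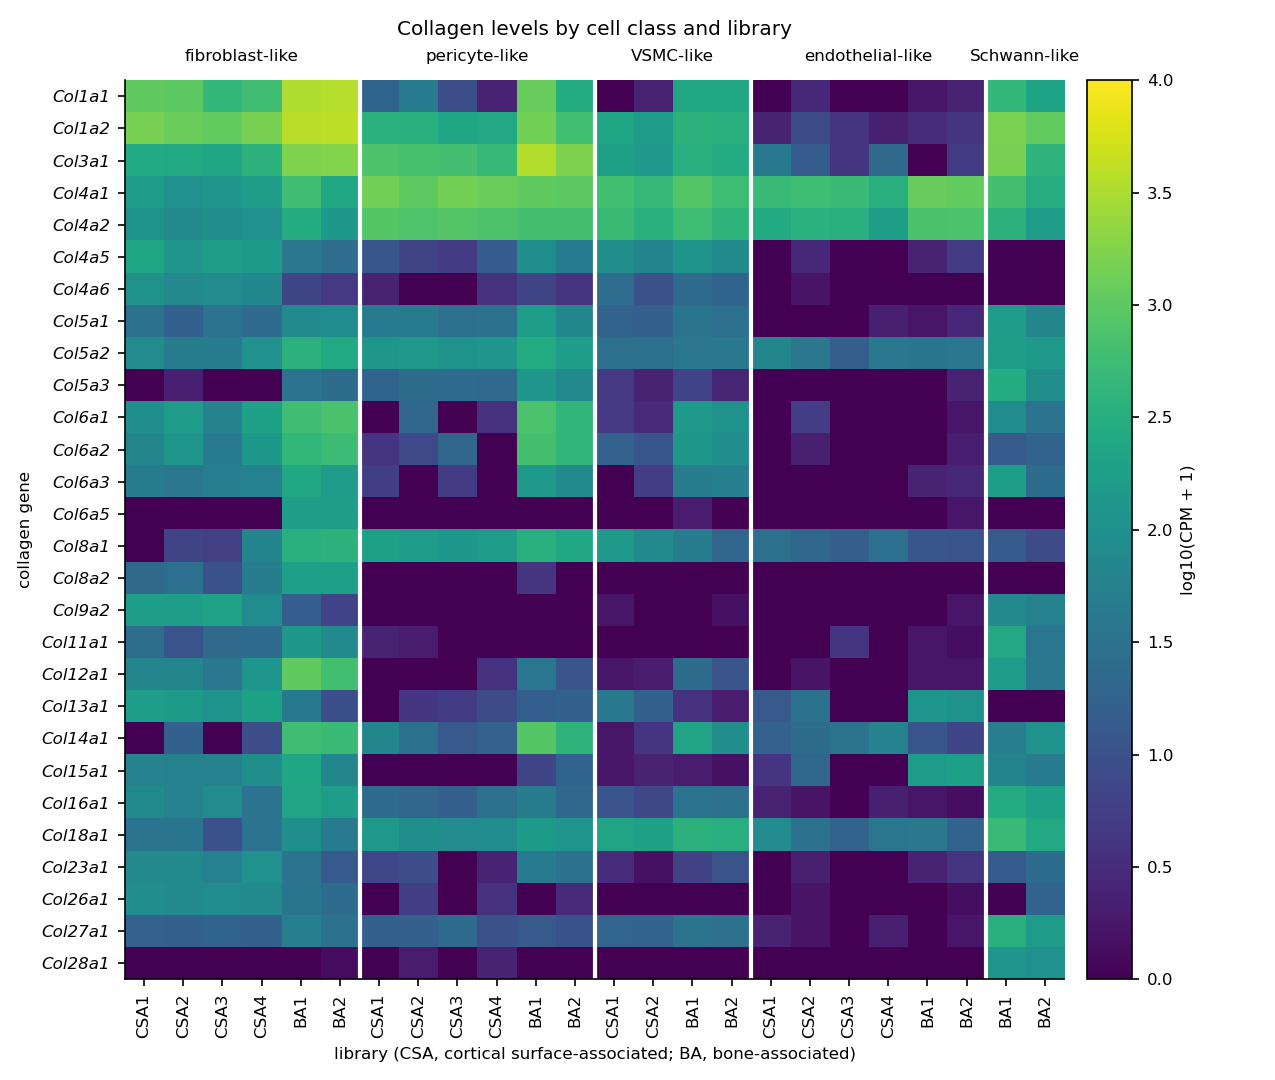
Levels of the 28 described collagen genes, as log10(CPM + 1), in each library of the fibroblast-like, pericyte-like, VSMC-like, endothelial-like and Schwann-like cells. Col1a1 and Col1a2 are brightest in BA1 and BA2 fibroblast-like cells, Col4a1 and Col4a2 are bright in every class, and Col28a1 is bright in Schwann-like cells.

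The makeup of the collagen transcripts differed by class. In fibroblast-like cells fibrillar genes gave 59.2 to 64.7% of collagen UMIs in the CSA libraries and 64.3% and 70.8% in BA1 and BA2, so the ranges overlapped. Basement membrane genes led in endothelial-like cells, with 68.9 to 81.8% in CSA and 82.5% and 82.6% in BA. Pericyte-like cells held 52.7 to 63.9% basement membrane and 28.2 to 37.2% fibrillar UMIs in CSA. In BA1 and BA2 their basement membrane share was 16.1% and 27.7% and their fibrillar share 57.6% and 44.2%, with no overlap between preparations. Beaded filament genes took 0.0875 to 0.765% of pericyte-like collagen UMIs in CSA and 13.2% and 14.5% in BA. In VSMC-like cells the basement membrane shares were 57.8% and 55.8% in CSA and 42.6% and 39.0% in BA. Multiplexin genes, nearly all of it Col18a1, took 10.1 to 12.4% of VSMC-like collagen UMIs over the 4 libraries.

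Summed over all 44 genes, collagens reached 3217 to 4601 CPM in fibroblast-like cells of CSA and 14598 and 13835 in BA1 and BA2. The sums were 3301 to 4108 against 11577 and 6421 in pericyte-like cells, and 2166 and 1569.9 against 3694 and 2762 in VSMC-like cells. Endothelial-like cells held 719 to 1168 against 2284 and 2223. Schwann-like cells of BA1 and BA2 held 7496 and 3699. In each of the 4 classes found in both preparations, every BA library lay above every CSA library.

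**Figure D2:**
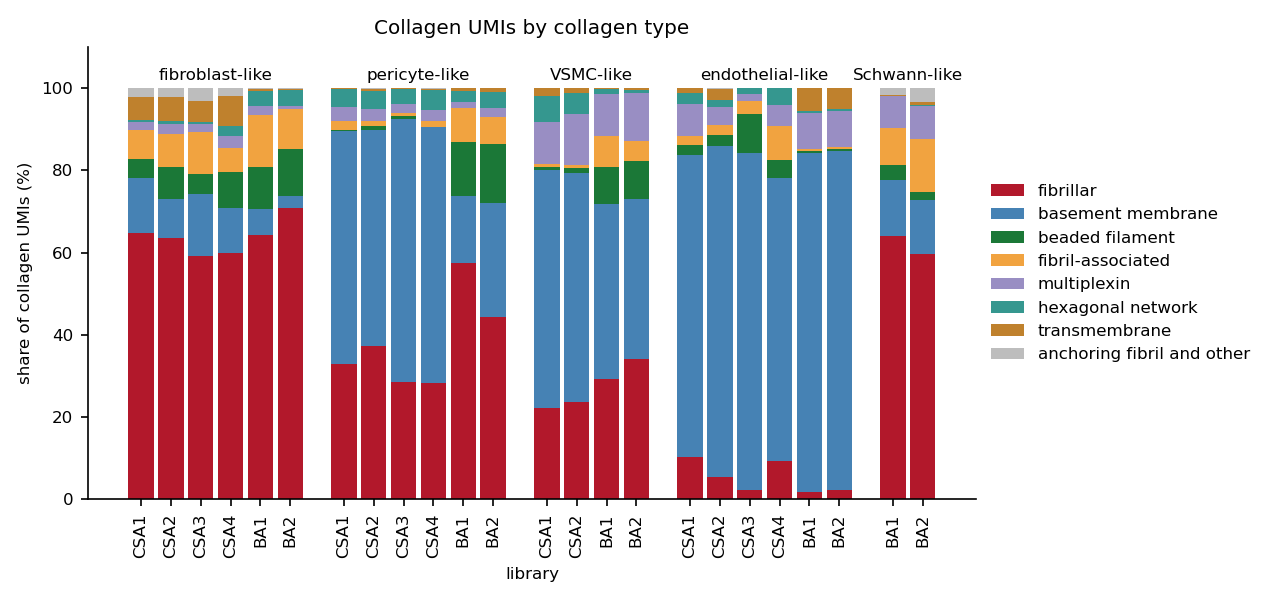
Share of collagen UMIs (%) by collagen type in each library and class, stacked to 100%. Fibrillar genes fill most of the fibroblast-like and Schwann-like bars, basement membrane genes most of the endothelial-like bars, and the pericyte-like bars of BA1 and BA2 hold larger fibrillar and beaded filament shares than those of CSA1 to CSA4.

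The first comparison asked how collagen expression differs between fibroblast-like cells of the bone-associated and of the cortical surface preparation. Of 27 members found in over 10% of cells of either preparation, 23 were called different by edgeR's quasi-likelihood test, with an adjusted p under 0.05 and a log2 difference of 1.3 or more in either direction. Of all genes tested, 12.7% were called. Each SE given with a log2 difference was derived from the F statistic of the test. The 17 members that were higher in BA (against 7.5% of all genes) included the chains of types I, III, V and VI. The 6 that were lower (against 5.2%) were Col4a5, Col4a6, Col9a2, Col13a1, Col23a1 and Col26a1. The median log2 difference, BA minus CSA, was 1.80 over the 27 members and 0.01 over all genes, and the former is the same with Col6a5, which had no UMI in CSA, at its lower bound. Libraries of the preparations did not overlap for 26 of the 27 members, against 30.9% of all genes. The shares over all genes, here and for the other classes, also count genes found in over 10% of cells of 1 preparation alone. No share was counted over genes found in both preparations, so members found in both were not set against one. Of the 20 members found in over 10% of cells of both preparations, 13 were higher and 3 lower in BA. The other 4 higher (Col5a3, Col6a5, Col8a1 and Col14a1) and 3 lower (Col4a6, Col9a2 and Col13a1) members were found in 1 preparation alone. This left little room for the other direction.

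**Figure D3:**
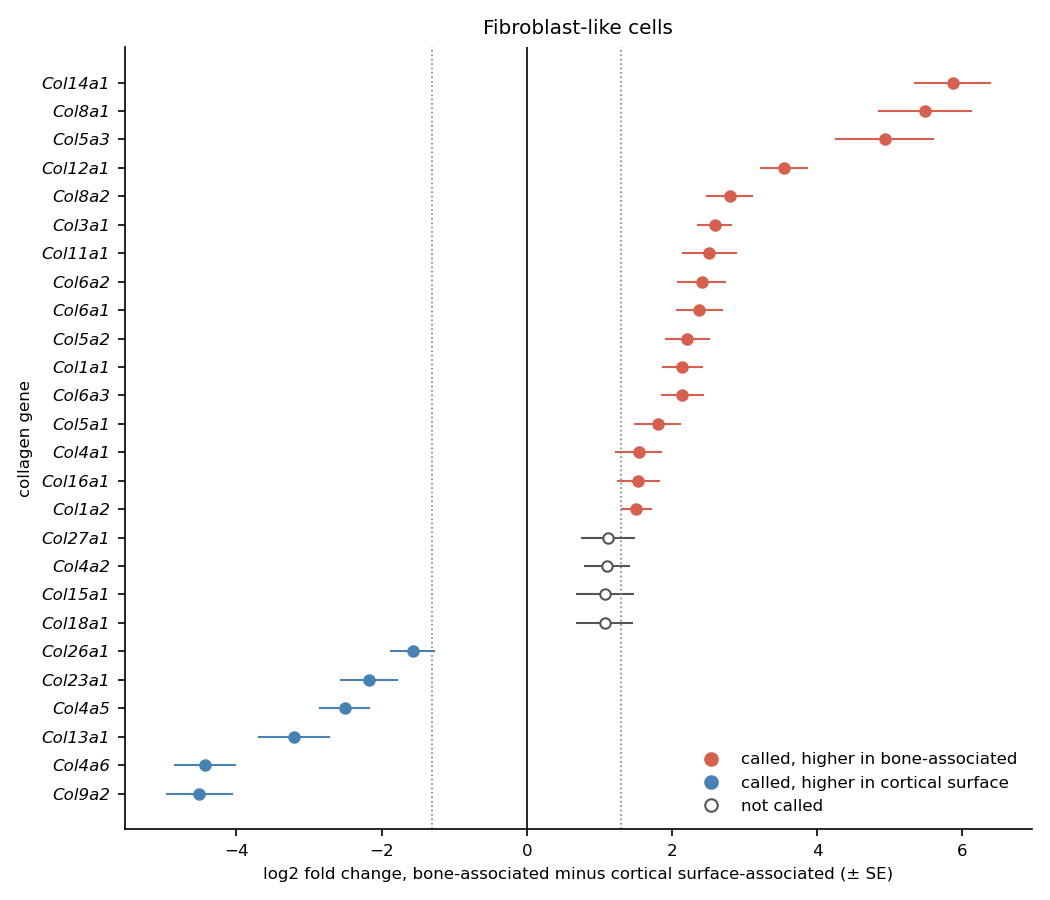
Log2 fold change of 26 collagen genes in fibroblast-like cells, bone-associated minus cortical surface-associated, with bars of 1 SE (derived from the F statistic) and dotted lines at the fold limits. Points run from 5.86 for Col14a1 to -4.51 for Col9a2, and Col6a5 is left out because it had no UMI in cortical surface cells. The Col5a3 point rests on 2 UMIs in cortical surface cells and depends on the prior count of the fit.

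Fibrillar genes were the most abundant members, and 7 of the 8 tested were higher in BA fibroblast-like cells. Col1a1 (ENSMUSG00000001506, chr11:94936224-94953042, plus strand of GRCm38), the α1 chain of type I collagen, measured 1039, 971, 446 and 590.2 CPM in CSA1 to CSA4 and 3336 and 3564 in BA1 and BA2. No CSA library came near the BA libraries, and the log2 difference was 2.14 ± 0.28 (SE, adjusted p = 3.64e-05). It was 3.01 with an unnamed BA cluster of fibroblast-marked cells (BA-21) added to the class. Its partner chain Col1a2 measured 1493, 1199, 1100.3 and 1515 CPM in CSA1 to CSA4 and 3684 and 3954 in BA1 and BA2, a log2 difference of 1.51 ± 0.22 (SE, adjusted p = 9.29e-05). The ratio of Col1a1 to Col1a2 was 0.575 ± 0.211 (SD, n = 4) in CSA and 0.904 ± 0.00284 (SD, n = 2) in BA, and its CSA values ran from 0.389 to 0.81. Col3a1, the only chain of type III collagen, measured 281, 266, 232 and 383 CPM in CSA1 to CSA4 and 1703 and 1784 in BA1 and BA2, with a log2 difference of 2.59 ± 0.24 (SE, adjusted p = 1.07e-06). Exons of the annotated gene Gm47302 overlap Col3a1 on the same strand, so reads there could belong to either.

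The type V chains, which set the width of type I fibres, were higher in BA. Col5a1 measured 30.9, 16.8, 32.5 and 23.9 CPM in CSA1 to CSA4 and 78.3 and 87.9 in BA1 and BA2, a log2 difference of 1.80 ± 0.33 (SE, adjusted p = 7.90e-04). Col5a2 measured 84.9, 47.8, 46.4 and 104 CPM in CSA1 to CSA4 and 368 and 265 in BA1 and BA2, a log2 difference of 2.21 ± 0.31 (SE, adjusted p = 6.51e-05). The BA libraries lay above all CSA libraries for both. Col5a3, the third type V chain, had 2 UMIs over the CSA libraries and 81 in BA, a pooled ratio of 33.4 with a 95% counting interval of 8.95 to 280.3. Col11a1, a type XI chain of cartilage and other fibres, measured 26.2, 9.93, 23.2 and 23.9 CPM in CSA1 to CSA4 and 133 and 82.2 in BA1 and BA2, and the log2 difference was 2.51 ± 0.38 (SE, adjusted p = 1.50e-04). Col27a1 was the fibrillar gene that did not pass, with 17.0, 16.1, 18.6 and 16.0 CPM in CSA1 to CSA4 and 52.2 and 29.5 in BA1 and BA2 and a log2 difference of 1.12 ± 0.38 (SE, adjusted p = 0.0557).

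Beaded filament genes were higher in BA for all 4 members tested. Col6a1 (ENSMUSG00000001119, chr10:76708792-76726168, minus strand) encodes the first chain of the type VI trimer and measured 98.8, 156, 60.4 and 191 CPM in CSA1 to CSA4 and 595 and 714 in BA1 and BA2. Its log2 difference was 2.38 ± 0.32 (SE, adjusted p = 5.00e-05), with every BA value above every CSA value. Its partner Col6a2 measured 67.9, 125, 41.8 and 136 CPM in CSA1 to CSA4 and 438 and 554 in BA1 and BA2, a log2 difference of 2.41 ± 0.34 (SE, adjusted p = 6.62e-05). Col6a3, the longest chain of the trimer, measured 46.3, 37.2, 51.1 and 55.8 CPM in CSA1 to CSA4 and 252 and 159 in BA1 and BA2, a log2 difference of 2.14 ± 0.29 (SE, adjusted p = 4.92e-05). Col6a1 and Col6a2 kept a ratio of 1.39 ± 0.0958 (SD, n = 4) in CSA and 1.32 ± 0.0473 (SD, n = 2) in BA. Col6a5 (ENSMUSG00000091345, chr9:105856078-105960643, minus strand), an alternative to the Col6a3 chain, had 0 UMIs in all 4 CSA libraries and 174 and 165 CPM in BA1 and BA2. Against a floor of 3 counts over the CSA libraries, it was at least 147-fold higher in BA. A UMI of it was found in 43 of 202 BA fibroblast-like cells (21.3%) and in 0 of 605 BA T or NK-like cells, at median depths of 15254 and 6118 UMIs. No CSA fibroblast-like cell of 282 had one, which allows a share of up to 1.06%, at a median depth of 7866 UMIs in these cells.

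Fibril-associated genes split. Col14a1 (undulin) and Col12a1, which coat type I fibres in tendon and dense connective tissue, were among those with the greatest differences. Col14a1 (ENSMUSG00000022371, chr15:55307750-55520803, plus strand) measured 0, 16.8, 0 and 7.98 CPM in CSA1 to CSA4 and 583 and 534 in BA1 and BA2, a log2 difference of 5.86 ± 0.53 (SE, adjusted p = 8.66e-07). Col12a1 measured 64.8, 65.8, 37.1 and 128 CPM in CSA1 to CSA4 and 1041 and 607 in BA1 and BA2, a log2 difference of 3.54 ± 0.33 (SE, adjusted p = 1.23e-06). Both lay far above the CSA range in each BA library. Col16a1, a minor fibril-associated collagen, measured 78.7, 56.5, 83.6 and 31.9 CPM in CSA1 to CSA4 and 215 and 173 in BA1 and BA2, a log2 difference of 1.54 ± 0.30 (SE, adjusted p = 0.00124). Col9a2, a chain of the type IX collagen of cartilage fibrils, ran the other way with 171, 173, 199.6 and 87.7 CPM in CSA1 to CSA4 and 14.5 and 5.34 in BA1 and BA2 and a log2 difference of -4.51 ± 0.46 (SE, adjusted p = 3.39e-06). Every CSA library lay above both BA libraries for Col9a2, while the other type IX genes were close to 0, with 19 UMIs of Col9a1 in BA as the most.

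The hexagonal network genes Col8a1 and Col8a2, the pair of type VIII chains best known from vessel walls and the cornea, were both higher in BA. Col8a1 (ENSMUSG00000068196, chr16:57624258-57754737, minus strand) measured 0, 5.59, 4.64 and 63.8 CPM in CSA1 to CSA4 and 348 and 378 in BA1 and BA2, a log2 difference of 5.48 ± 0.64 (SE, adjusted p = 1.29e-05). CSA4, with 23 fibroblast-like cells, stood above the other CSA libraries, and by DESeq2 the Col8a1 difference had an adjusted p of 0.135. Col8a2 measured 23.2, 27.9, 9.29 and 47.9 CPM in CSA1 to CSA4 and 183 and 179 in BA1 and BA2, a log2 difference of 2.79 ± 0.33 (SE, adjusted p = 1.28e-05). The multiplexins Col15a1 and Col18a1 did not pass, with differences of 1.08 ± 0.39 (SE, adjusted p = 0.0803) and 1.07 ± 0.39 (SE, adjusted p = 0.0779). Levels of Col15a1 were 58.7, 55.9, 55.7 and 95.7 CPM in CSA1 to CSA4 and 223 and 67.3 in BA1 and BA2, and those of Col18a1 34, 34.8, 9.29 and 31.9 CPM in CSA1 to CSA4 and 98.6 and 45.2 in BA1 and BA2. For Col15a1, BA1 and BA2 lay on opposite sides of CSA4. Both multiplexins were called under 4 other choices of cells and clustering (no doublet removal, at least 1000 genes per cell, collagen genes in the clustering and Leiden resolution 1.0), at 1.38 to 2.24 for Col15a1 and 1.49 to 2.49 for Col18a1.

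Members that were higher in cortical surface fibroblast-like cells were mostly transmembrane or network chains. Col13a1 (ENSMUSG00000058806, chr10:61838236-61979108, minus strand), a membrane-anchored collagen of cell adhesion sites, measured 169.8, 149, 107 and 191 CPM in CSA1 to CSA4 and 40.6 and 8.54 in BA1 and BA2, a log2 difference of -3.21 ± 0.49 (SE, adjusted p = 1.64e-04). Col23a1, another transmembrane collagen, measured 75.6, 81.3, 55.7 and 104 CPM in CSA1 to CSA4 and 31.9 and 12.5 in BA1 and BA2, a log2 difference of -2.18 ± 0.40 (SE, adjusted p = 8.04e-04). Col26a1, which carries an EMI domain, measured 89.5, 77.0, 88.2 and 79.8 CPM in CSA1 to CSA4 and 34.8 and 25.3 in BA1 and BA2, a log2 difference of -1.57 ± 0.31 (SE, adjusted p = 0.00138). In all of them the preparations were separate. Without BA2, which holds 180 of the 202 BA fibroblast-like cells, Col23a1 and Col26a1 were no longer called (log2 differences of -1.34, adjusted p = 0.124 and -1.32, adjusted p = 0.101). With no doublet removal and with at least 1000 genes per cell neither was called, at -1.28 and -0.78 for Col23a1 and -1.24 and -1.18 for Col26a1. Col26a1 was also not called with collagen genes in the clustering (-1.29) or at Leiden resolution 1.0 (-0.97).

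Type IV chains moved in opposite directions in these cells. Col4a1 and Col4a2, the pair found in nearly every basement membrane, had differences of 1.54 ± 0.32 (SE, adjusted p = 0.00252) and 1.11 ± 0.31 (SE, adjusted p = 0.0214), and only the first passed both limits. Col4a5 fell by 2.51 (adjusted p = 6.65e-05), from 119.8 to 230.0 CPM in CSA to 37.7 and 26.0 in BA1 and BA2. Col4a6 fell by 4.43 (adjusted p = 1.63e-06), from 71.8 to 111 to 5.80 and 3.56. Col4a1 measured 595 in BA1 and 239 in BA2, against 106 to 167 in CSA. Without BA1 its log2 difference was 0.84, adjusted p = 0.112, and without BA2 those of Col4a2, Col15a1 and Col18a1 were 1.59, adjusted p = 0.00407, 1.78, adjusted p = 0.00296 and 1.63, adjusted p = 0.0306. With all libraries, Col4a2 was also called under the same 4 choices of cells and clustering as Col15a1 and Col18a1, at 1.34 to 1.89. With cluster BA-21 added, an unnamed BA cluster led by Chad and Comp, the Col4a1 difference was 1.19, adjusted p = 0.01 and no longer called. The 9 endothelial markers summed to 589 CPM in fibroblast-like cells of BA1, 78.0 in BA2 and 175 to 209.8 in CSA, with Tie1 at 0 in CSA, and their part in these differences was not tested.

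The bone-associated fibroblast-like cells fell into 2 clusters that differed in several collagens. The leading genes of BA-15 (110 cells) included Col6a5 itself, Gjb6, Krt12, Ostn and Cxcl14. Those of BA-20 (92 cells) included Inmt, Apod, Epyc, Clec3b, Aldh1a2, Cemip and Igfbp6. Gjb6 and Cemip were also leading genes of cluster CSA-9, and Igfbp6 of CSA-29. The study reports Gjb6 as enriched in leptomeningeal cells and Aldh1a2 as a gene of the developing leptomeninges. Values of these clusters are given as a description, with no test. Col6a5 stood at 274 CPM in BA-15 and 0 in BA-20, and Col8a2 at 258 and 57.9. Genes of the opposite pattern were Col3a1 (851 and 3197), Col4a1 (128 and 507), Col5a1 (30.9 and 173), Col6a3 (52.8 and 348) and Col15a1 (1.05 and 212). BA1 held 10 and 12 cells of BA-15 and BA-20, and BA2 held 100 and 80. Col1a1 was alike in both, at 3427 and 3712. Among cortical surface cells, cluster CSA-9 (235 cells, led by Slc6a13, Slc22a6 and Ptgds) held Col9a2 at 208 and Col13a1 at 183, and cluster CSA-29 (47 cells, led by Slc47a1, Igfbp6 and Mfap5) held them at 78.0 and 76.7. Col14a1 was at 0 in CSA-9 and 37.7 in CSA-29.

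Markers of other cell types were counted in the same fibroblast-like sums. The 6 chondrocyte markers summed to 528 and 606 CPM in BA1 and BA2, with 4 of 6 found and Matn3 and Hapln1 at 0, and to 63.8 to 115 in CSA. Acan, Sox9 and Comp were raised in cluster BA-15 (110 cells), which stayed in the class. The 6 osteoblast markers summed to 14.5 and 23.5 in BA and to at most 9.29 in CSA, with Ibsp at 0 in every library. The 8 border macrophage markers summed to 3658 in CSA3, 1322 in CSA2 and at most 448 elsewhere. The 9 VSMC markers summed to 644 and 636 in BA, with Pln at 0, and to 71.8 to 319 in CSA. The part of these markers in the collagen differences was not tested. With CSA3 and CSA4 left out, 23 members were called, the same as with them.

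In pericyte-like cells 14 of 20 members tested were called, each of them higher in BA, against 8.54% of all genes in either direction, 6.67% higher and 1.87% lower. The members were Col1a1, Col1a2, Col3a1, Col4a3, Col4a4, Col4a5, Col5a1, Col5a3, Col6a1, Col6a2, Col6a3, Col13a1, Col14a1 and Col23a1. The median log2 difference was 2.22 over the 20 and -0.02 over all genes. Libraries did not overlap for 16 of the 20, against 38.6% of all genes. Of the 20, 11 were found in over 10% of BA cells alone and could hardly be called lower, and all 11 were called, so they carry much of this count and median. Of the 9 found in over 10% of cells of both preparations, 3 (Col1a2, Col3a1 and Col5a1) were called, with a median log2 difference of 1.02. All 3 chains of the type VI trimer were close to absent in CSA. Col6a1 measured 0, 20.1, 0 and 2.89 CPM in CSA1 to CSA4 and 724 and 427 in BA1 and BA2, a log2 difference of 6.36 ± 0.52 (SE, adjusted p = 1.00e-06), with every BA value above every CSA value. Col6a2 measured 3.03, 6.69, 20.1 and 0 CPM in CSA1 to CSA4 and 665 and 423 in BA1 and BA2, a log2 difference of 6.80 ± 0.45 (SE, adjusted p = 1.39e-07). Col6a3 measured 4.54, 0, 4.03 and 0 CPM in CSA1 to CSA4 and 140.1 and 79.1 in BA1 and BA2, a log2 difference of 6.04 ± 0.55 (SE, adjusted p = 3.04e-06), from 4 UMIs in CSA and 125 in BA.

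Fibrillar chains followed. Col1a1 measured 18.2, 43.5, 8.05 and 1.44 CPM in CSA1 to CSA4 and 1192 and 298 in BA1 and BA2 in pericyte-like cells, a log2 difference of 5.32 ± 0.58 (SE, adjusted p = 1.63e-05). Col1a2 measured 364, 349, 233 and 255 CPM in CSA1 to CSA4 and 1415 and 606 in BA1 and BA2, a log2 difference of 1.91 ± 0.28 (SE, adjusted p = 2.04e-04). Pericyte-like cells of CSA therefore held Col1a2 with little Col1a1, at a Col1a1 to Col1a2 ratio of 0.0537 ± 0.0507 (SD, n = 4), against 0.667 ± 0.247 (SD, n = 2) in BA. Col3a1 was the leading fibrillar gene of these cells with 759, 686, 636 and 485 CPM in CSA1 to CSA4 and 3459.6 and 1604 in BA1 and BA2, a log2 difference of 2.16 ± 0.26 (SE, adjusted p = 3.11e-05). Col14a1 measured 66.6, 29.0, 12.1 and 17.3 CPM in CSA1 to CSA4 and 873 and 398 in BA1 and BA2, a log2 difference of 4.41 ± 0.40 (SE, adjusted p = 2.75e-06). Of the type V chains, Col5a1 measured 42.4, 42.3, 28.2 and 31.8 CPM in CSA1 to CSA4 and 176 and 73.1 in BA1 and BA2, a log2 difference of 1.82 ± 0.33 (SE, adjusted p = 0.00123), and Col5a3 measured 18.2, 24.5, 24.2 and 23.1 CPM in CSA1 to CSA4 and 125 and 75.1 in BA1 and BA2, a log2 difference of 2.28 ± 0.29 (SE, adjusted p = 6.30e-05). BA1 was the higher of the BA libraries for Col1a1, Col1a2, Col3a1 and Col14a1, and leaving it out ended the calls of Col1a2 and Col5a1 at the fold limit (1.23, adjusted p = 0.0042, and 1.19, adjusted p = 0.0191).

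Among type IV chains the common pair was level and the others were not. Col4a1 measured 1419, 1022, 1477 and 1260.0 CPM in CSA1 to CSA4 and 1052 and 980.1 in BA1 and BA2. Col4a2 measured 883, 796, 857 and 769 CPM in CSA1 to CSA4 and 649.6 and 659 in BA1 and BA2. In CSA these were the highest values among the classes compared. Their differences were -0.15 ± 0.20 (SE, adjusted p = 0.729) and -0.13 ± 0.19 (SE, adjusted p = 0.74). Col4a3 and Col4a4, the chains of the glomerular basement membrane, were found mainly in pericyte-like cells, at 11.1 ± 4.39 and 14.1 ± 14.9 (SD, n = 4) in CSA and 30.2 ± 8.97 and 46.3 ± 14.9 (SD, n = 2) in BA. Their differences were 1.81 ± 0.42 (SE, adjusted p = 0.00823) and 2.47 ± 0.51 (SE, adjusted p = 0.00352), and the Col4a4 values overlapped. Without BA2 neither was called (adjusted p = 0.279 and 0.16). Col4a5 measured 10.6, 5.57, 4.03 and 13 CPM in CSA1 to CSA4 and 98.3 and 44.6 in BA1 and BA2, a log2 difference of 3.07 ± 0.42 (SE, adjusted p = 1.30e-04). Col23a1 measured 6.06, 7.80, 0 and 1.44 CPM in CSA1 to CSA4 and 41.7 and 30.4 in BA1 and BA2, a log2 difference of 3.02 ± 0.53 (SE, adjusted p = 9.98e-04). For Col13a1 the log2 difference was 2.28 ± 0.67 (SE, adjusted p = 0.0355), but it rested on 21 UMIs in BA and 9 in CSA and was lost by DESeq2 (adjusted p = 0.114) and without any of CSA1, CSA2, BA1 or BA2.

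Fibroblast marker transcripts moved with these genes. The 7 fibroblast markers summed to 1195 and 973 CPM in BA pericyte-like cells, with 7 of 7 found, and to 84.5 to 183 in CSA, with Pdgfra at 0. A Col1a1 UMI was found in 51.4% and 53.9% of pericyte-like cells of BA1 and BA2 and in 0.546% to 7.28% of those of CSA. Counting cells with UMIs of fewer than 2 fibroblast markers alone, the shares were 34.8% and 42.0% against 0.568% to 4.48%. In T or NK-like cells the share was 1.32% in BA and 0.373% in CSA. Median depths were 7308 and 4498 UMIs in BA and CSA pericyte-like cells, and with every cell thinned to 1500 UMIs the shares were 27.8% and 1.65%. Thinning left out 1 of 163 and 10 of 494 cells.

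The pericyte-like cells were further split by cluster, a choice made after seeing the data. Cluster BA-22 (78 cells) and cluster CSA-6 (263 cells) were both led by genes of capillary pericytes, among them Pla1a and Abcc9. Clusters BA-14.1, BA-14.2, BA-14.4 and CSA-10 (33, 32, 20 and 231 cells) did not have those leading genes. Ccl19 and Colec11 were among those of BA-14.1 and CSA-10, Ccl11 and Nnmt of BA-14.4, and Wisp2 of BA-14.2, which also expressed the fibroblast markers Dcn and Lum. Fitted on BA-22 and CSA-6 alone, 15 of 21 members tested were called, against 5.8% of all genes in that fit. Members near 0 in CSA-6, such as Col1a1 and Col6a2 (0.96 and 3.84 CPM), could hardly be called lower and carry part of this count. The differences were 6.5 for Col1a1, 6.15 for Col6a1, 6.84 for Col6a2 and 2.19 for Col3a1. Col1a2 was not called there (0.88, adjusted p = 0.0492), and Col14a1 was found in too few cells to be tested. Levels in BA-22 and CSA-6 were 115 and 0.96 for Col1a1, 415 and 6.72 for Col6a1, and 18.2 and 3.84 for Col14a1. Cluster BA-14.2 held far more, with Col1a1 at 1494, Col3a1 at 3414, Col6a1 at 829 and Col14a1 at 1186. Its pericyte identity was weak, since the pericyte markers Higd1b, Ndufa4l2, Cox4i2, Art3 and Atp13a5 were not raised in it.

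**Figure D4:**
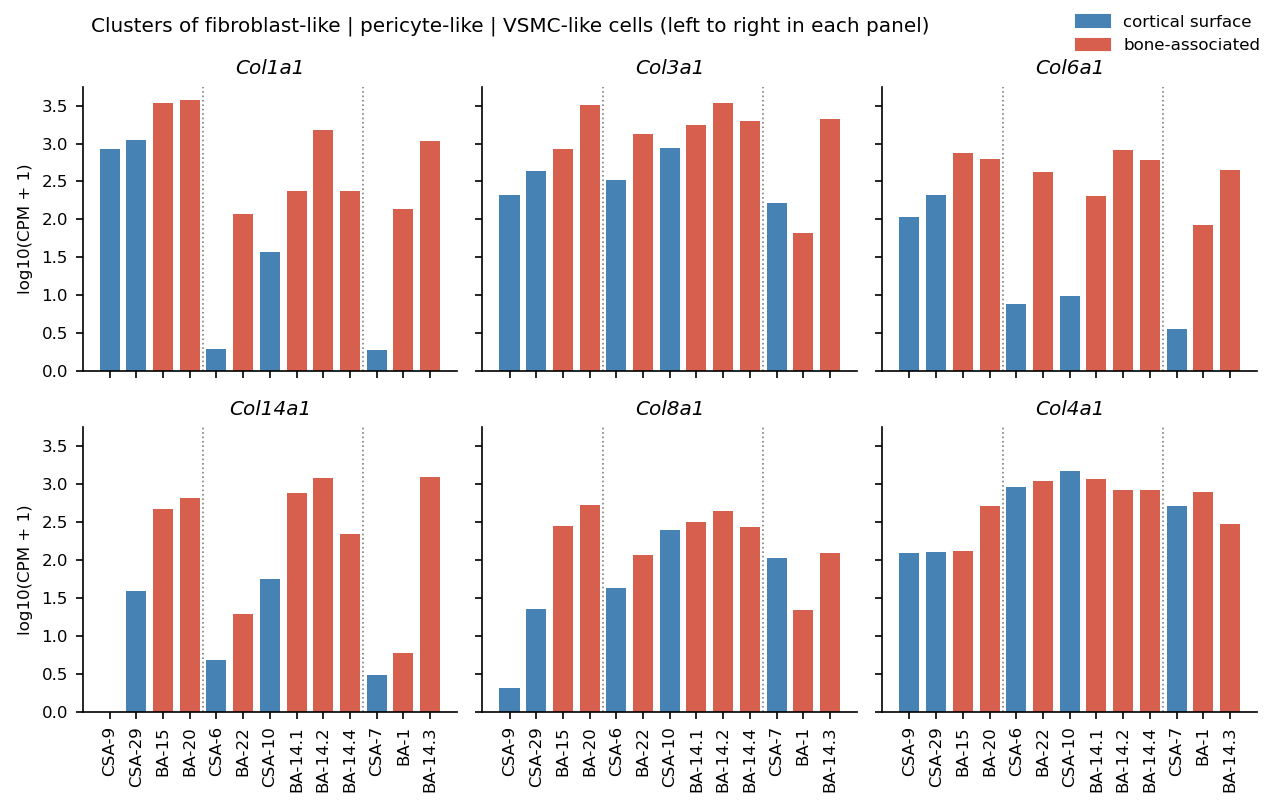
Levels of Col1a1, Col3a1, Col6a1, Col14a1, Col8a1 and Col4a1, as log10(CPM + 1), in each cluster of fibroblast-like, pericyte-like and VSMC-like cells, separated by dotted lines, with blue bars for cortical surface and red bars for bone-associated clusters. Col1a1 and Col6a1 bars are taller in the bone-associated pericyte-like and VSMC-like clusters than in CSA-6 and CSA-7, and Col14a1 is low in BA-22 and BA-1 and high in BA-14.1, BA-14.2 and BA-14.3.

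VSMC-like cells could be compared between 2 CSA and 2 BA libraries. Of 18 members tested, 8 were called, 6 higher and 2 lower in BA, against 6.09% of all genes, 4.38% higher and 1.71% lower. The median log2 difference was 0.92 over the members and -0.01 over all genes. Libraries did not overlap for 14 of the 18, against 49.3% of all genes. Of the 12 found in over 10% of cells of both preparations, 2 (Col6a2 and Col8a1) were called, and the other 6 called members were found in 1 preparation alone. Col1a1 measured 0 and 1.47 CPM in CSA1 and CSA2 and 253 and 245 in BA1 and BA2, with 3 UMIs in CSA and 925 in BA, a pooled ratio of 282 with a 95% counting interval of 96.0 to 1368. Col1a2 measured 223 and 157 CPM in CSA1 and CSA2 and 387 and 316 in BA1 and BA2 and did not pass the fold limit, with a log2 difference of 0.99 ± 0.24 (SE, adjusted p = 0.00795). In VSMC-like cells of CSA, transcripts of the α2 chain of type I collagen were thus found with almost none of α1.

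Type VI and fibril-associated chains made up the rest of those that rose. Col6a1 measured 3.67 and 1.97 CPM in CSA1 and CSA2 and 147 and 109.5 in BA1 and BA2 in VSMC-like cells, a log2 difference of 5.63 ± 0.39 (SE, adjusted p = 3.16e-10). Col6a2 and Col6a3 had differences of 3.14 and 4.29 (adjusted p = 1.36e-07 and 8.89e-07), and by DESeq2 Col6a3 had an adjusted p of 0.129. The ratio of Col6a1 to Col6a2 was 0.2 ± 0.0252 (SD, n = 2) in CSA and 1.15 ± 0.0994 (SD, n = 2) in BA. Col16a1 measured 10.3 and 6.39 CPM in CSA1 and CSA2 and 32.5 and 28.8 in BA1 and BA2, a log2 difference of 2.01 ± 0.35 (SE, adjusted p = 2.84e-04). Col14a1 measured 0.735 and 2.95 CPM in CSA1 and CSA2 and 216 and 93.5 in BA1 and BA2, a log2 difference of 6.25 ± 0.49 (SE, adjusted p = 2.33e-09), but cluster BA-14.3 (26 of 292 cells) held it at 1246 and the larger cluster BA-1 (266 cells) at 4.89.

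Col8a1 and Col13a1 were lower in BA VSMC-like cells. Col8a1, which medial smooth muscle makes in remodelling arteries, measured 137 and 81.1 CPM in CSA1 and CSA2 and 46.6 and 19.8 in BA1 and BA2, a log2 difference of -1.61 ± 0.32 (SE, adjusted p = 9.62e-04). It ended below the fold limit without CSA1 (-1.28, adjusted p = 0.00774) and without BA2 (-1.16, adjusted p = 0.0189). Col13a1 measured 41.2 and 16.7 CPM in CSA1 and CSA2 and 2.71 and 1.07 in BA1 and BA2, a log2 difference of -3.74 ± 0.54 (SE, adjusted p = 2.28e-05). The basement membrane genes of these cells did not pass, with 608 and 455 CPM in CSA1 and CSA2 and 857 and 581 in BA1 and BA2 for Col4a1 and a log2 difference of 0.53 ± 0.25 (SE, adjusted p = 0.231). Col18a1, the source of endostatin, measured 218 and 194 CPM in CSA1 and CSA2 and 376 and 322 in BA1 and BA2, a log2 difference of 0.86 ± 0.24 (SE, adjusted p = 0.0188) that stayed below the fold limit.

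The 7 fibroblast markers summed to 296 and 258 CPM in BA VSMC-like cells and to 34.5 and 50.6 in CSA. A Col1a1 UMI was found in 48.8% and 52.8% of the cells of BA1 and BA2 and in 0% and 1.89% of those of CSA1 and CSA2, and in cells with UMIs of fewer than 2 fibroblast markers the shares were 44.4% and 47.9% against 0% and 1.34%. Median depths were 12412 UMIs in BA and 12750.0 in CSA, and with cells thinned to 1500 UMIs the shares were 19.0% and 0%. Fitted on the largest cluster of each preparation alone (BA-1 and CSA-7, chosen after seeing the data), 7 of 17 members tested were called, against 6.24% of all genes in that fit, among them Col1a1 (7.26) and Col6a1 (5.06), and Col14a1 was no longer tested. Members near 0 in CSA-7, such as Col1a1 and Col6a1 (0.88 and 2.65 CPM), could hardly be called lower and carry part of this count. Col3a1 turned from 1.00 ± 0.24 (SE, adjusted p = 0.00625) in all VSMC-like cells to -1.20, adjusted p = 9.26e-04 in BA-1 against CSA-7. Its level was 2083 in BA-14.3, 66.0 in BA-1 and 162 in CSA-7.

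Endothelial-like cells held few collagens, and 7 members could be tested. Of these 4 were called, 3 higher and 1 lower in BA, against 6.46% of all genes, 4.45% higher and 2.01% lower. Col4a2 measured 282, 355, 321 and 169 CPM in CSA1 to CSA4 and 708 and 724 in BA1 and BA2, a log2 difference of 1.39 ± 0.23 (SE, adjusted p = 2.68e-04). It fell below the fold limit without CSA4 (1.23), with CSA3 and CSA4 left out (1.24), with the replicate number as a block (1.25), and with no doublet removal, at least 1000 genes per cell or collagen genes in the clustering (1.26 to 1.28). The Col4a2 difference was also below the limit, at 1.18, with the unnamed cluster BA-7 added to the class. Col4a1 measured 510.4, 579, 525 and 327 CPM in CSA1 to CSA4 and 1161 and 1100.2 in BA1 and BA2, a log2 difference of 1.26 ± 0.22 (SE, adjusted p = 3.69e-04) that was just below the fold limit. Col15a1 (ENSMUSG00000028339, chr4:47208161-47313167, plus strand), the multiplexin of capillary basement membranes, measured 3.07, 20.5, 0 and 0 CPM in CSA1 to CSA4 and 159 and 178 in BA1 and BA2, a log2 difference of 4.21 ± 0.46 (SE, adjusted p = 2.96e-06). Col13a1 measured 12.3, 29.8, 0 and 0 CPM in CSA1 to CSA4 and 125 and 107 in BA1 and BA2, a log2 difference of 3.0 ± 0.46 (SE, adjusted p = 1.03e-04). By DESeq2 the adjusted p was 0.109 for Col15a1 and 0.375 for Col13a1. CSA2 was the highest CSA library for both genes. Col5a2 and Col18a1 did not pass, and Col18a1 measured 82.8, 31.1, 18 and 36.8 CPM in CSA1 to CSA4 and 38.7 and 18.1 in BA1 and BA2, a log2 difference of -0.63 ± 0.38 (SE, adjusted p = 0.342). With cluster BA-7, led by arterial genes and left unnamed, added to the class, the Col18a1 difference turned to 0.96, adjusted p = 0.0388. Cluster CSA-24, which shares the leading genes Gkn3, Gja5 and Cytl1 with BA-7, was in the class, and Col18a1 was at 236 and 244 CPM in CSA-24 and BA-7. Libraries did not overlap for 5 of the 7, against 31.6% of all genes. Col13a1 and Col15a1 were found in over 10% of BA cells alone, and Col6a6 and Col18a1 of CSA cells alone. Such members could hardly be called in the other direction, and they carry much of the count of 4. Of the 3 members found in both preparations (Col5a2, Col4a1 and Col4a2), only Col4a2 was called.

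Col6a6, an alternative to the Col6a3 chain, was the member that was lower in BA endothelial-like cells. It measured 26.1, 25.5, 98.9 and 31.9 CPM in CSA1 to CSA4 and 6.07 and 5.00 in BA1 and BA2, a log2 difference of -2.76 ± 0.51 (SE, adjusted p = 6.90e-04), and its lowest CSA value still lay above both BA values. In CSA it was confined almost wholly to 1 of 4 clusters. Cluster CSA-5 (265 cells, with Lhx6, Col6a6 itself, Slc38a5 and Vwf among its leading genes) held Col6a6 at 70.7 CPM, and clusters CSA-13, CSA-24 and CSA-37 held it at 5.80, 0 and 0.

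Clusters of endothelial-like cells also differed in the other members. Cluster BA-3 (217 of 453 BA cells) and cluster CSA-37 (11 of 541 CSA cells) were both led by Gpihbp1, Btnl9, Rbp7 and Esm1, and Col13a1 was also a leading gene of BA-3. Col4a1 was at 2150.2 and 2593 CPM in BA-3 and CSA-37, Col13a1 at 233 and 515, and Col15a1 at 345 and 324. In BA-9 and CSA-13, whose leading genes included the blood-brain barrier transporter gene Slco1c1, Col4a1 was at 289.6 and 654, Col13a1 at 16.5 and 1.66, and Col15a1 at 21.4 and 0. With BA-3 and CSA-37 left out, a choice made after seeing the data, the Col4a1 and Col4a2 differences were 0.01, adjusted p = 0.99 and 0.01, adjusted p = 0.986. Col13a1, Col15a1 and Col6a6 were still called, at 5.42, 6.84 and -1.97. In the CSA clusters that remained, Col13a1 was at no more than 1.66 CPM and Col15a1 at no more than 0.64. Both could therefore hardly be called lower in BA, and the size of their differences rests on very few CSA UMIs.

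Schwann-like cells were found in BA libraries alone, so they were described without a test of preparation. Col28a1 (ENSMUSG00000068794, chr6:7997808-8192617, minus strand), a collagen known from peripheral nerve, measured 125 and 103 CPM in BA1 and BA2. A UMI of it was found in 22 of 84 Schwann-like cells (26.2%, exact binomial 95% interval 17.2 to 36.9%) and in 1 of 605 BA T or NK-like cells, at median depths of 3538 and 6118 UMIs. Such intervals cover counting error only. In no other class did Col28a1 exceed 1.44 CPM in any library. Col20a1 and Col9a3 also had their highest means here, at 48.1 ± 2.58 and 44.6 ± 7.62 CPM (SD, n = 2), and annotated exons of BX649560.1 overlap those of Col20a1 on the same strand.

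Several matrix genes shared with fibroblast-like cells were abundant in Schwann-like cells. Col1a2 measured 1574 and 1079.7 and Col3a1 1499 and 399 CPM. Col18a1 (512 and 257), Col16a1 (287 and 189), Col27a1 (349.8 and 160.3) and Col5a3 (299.8 and 92.6) had their highest means of any class here, and for all of them BA1, with 15 cells, was the higher library. For Col18a1 the order rests on BA1, since the means were 384 ± 181 in Schwann-like and 349 ± 38.7 (SD, n = 2) in BA VSMC-like cells, and in BA2 the VSMC-like level (322) was the higher. Col1a1 was low beside Col1a2, at a ratio of 0.24 ± 0.0643 (SD, n = 2). Col4a1 measured 649.7 and 314 and Col4a2 375 and 164, while Col4a5 and Col4a6 had 0 UMIs.

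The 2 Schwann-like clusters differed. Cluster BA-27 (44 cells) was led by Chl1, Gfra3, Cdh19 and Scn7a, genes of Schwann cells without myelin, and cluster BA-28 (40 cells) by Ncmap, Cldn19 and Prx, genes of myelin. Col28a1 was alike in both, at 106 and 112. Col27a1 was at 308 in BA-27 and 22.5 in BA-28, Col18a1 at 467 and 52.4, Col16a1 at 308 and 44.9, Col11a1 at 137 and 0 and Col9a2 at 92.5 and 7.49. The 8 pericyte markers summed to 725 and 795 CPM in Schwann-like cells, with Abcc9, Higd1b and Atp13a5 at 0, and the 7 fibroblast markers to 87.5 and 92.6, with Pdgfra, Lum, Fbln1 and Mfap4 at 0. Their part in these levels was not tested.

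Whether a preparation difference itself differed between classes was tested by an interaction with the library as a block. Against fibroblast-like cells, 12 of 30 members differed in pericyte-like cells (adjusted p under 0.05, 8.75% of all genes), 9 of 30 in VSMC-like cells (10.1%) and 10 of 30 in endothelial-like cells (12.1%). On the log2 scale, Col1a1 and Col6a1 had larger differences in pericyte-like and VSMC-like than in fibroblast-like cells. In both classes they were found in over 10% of BA cells alone, so their differences there could hardly be negative. The size of the excess rests on few CSA UMIs, such as 3 of Col1a1 in VSMC-like cells. In CPM, Col1a1 rose by less in both classes than in fibroblast-like cells, and Col6a1 by less in VSMC-like cells alone. For Col1a1 the excess was 3.13 ± 0.52 (SE, adjusted p = 1.62e-04) in pericyte-like and 6.39 ± 0.86 (SE, adjusted p = 8.14e-06) in VSMC-like cells, and for Col6a1 it was 4.0 ± 0.53 (SE, adjusted p = 6.79e-06) and 3.36 ± 0.66 (SE, adjusted p = 9.69e-04). The last of these was not called by DESeq2 (adjusted p = 0.0657), without CSA2 (2.36, adjusted p = 0.0523) or with cells thinned to 1500 UMIs (adjusted p = 0.0565). Col4a5 and Col23a1, lower in BA fibroblast-like cells, had differences that were higher in each other class by 2.79 to 5.44 and 4.25 to 5.27. In endothelial-like cells these rest on 15 UMIs of Col4a5 and 12 of Col23a1. Among VSMC-like clusters, Col23a1 was at 51.5 CPM in BA-14.3 (26 cells), 1.22 in BA-1 (266 cells) and 1.18 in CSA-7. Without BA2 the endothelial-like values were not called (2.82, adjusted p = 0.377 and 2.56, adjusted p = 0.487), nor was that of Col23a1 in VSMC-like cells (3.41, adjusted p = 0.0546). Col8a1 showed the reverse, with -4.60, -7.25 and -6.71 relative to fibroblast-like cells. In fibroblast-like cells it was found in over 10% of BA cells alone, so its difference there could hardly be negative. The size of these values rests on its low CSA levels there, and by DESeq2 the fibroblast-like difference had an adjusted p of 0.135. Col5a2 had -1.31, -1.75 and -2.43, of which the first 2 were lost without CSA2 (adjusted p = 0.114 and 0.136). The endothelial-like class held cluster CSA-24 but not BA-7, with which it shares leading genes. Col8a1 was at 127 and 261 CPM in CSA-24 and BA-7, and Col5a2 at 131 and 91.6. With BA-7 added, the preparation difference of Col5a2 in endothelial-like cells turned from -0.18 to 0.30, and it was called in neither fit. Col13a1 fell in BA fibroblast-like and VSMC-like cells and rose in endothelial-like cells, and the endothelial-like difference exceeded the fibroblast-like one by 6.34 ± 0.66 (SE, adjusted p = 1.42e-07). Col13a1 was found in over 10% of CSA cells alone in fibroblast-like and VSMC-like cells, and of BA cells alone in endothelial-like cells. The other direction could hardly be called in any of these classes. The endothelial-like rise itself was not called by DESeq2 (adjusted p = 0.375). Within the Gpihbp1-led clusters, Col13a1 was at 233 CPM in BA-3 (217 of 453 cells) and 515 in CSA-37 (11 of 541 cells). With both left out, the endothelial-like difference was 5.42. The part of this cluster mix was not tested.

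Type IV genes lie as 3 head-to-head pairs, and the pairs differed in their pattern over the classes. The annotated starts of Col4a1 (minus strand) and Col4a2 (plus strand) overlap on chromosome 8, and the 22 shared bases, on the plus strand of GRCm38.p6 in RefSeq, are shown because both transcripts begin in them.
Col4a1 and Col4a2, chr8:11312805-11312826: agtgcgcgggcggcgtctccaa
Col4a1 exceeded Col4a2 in every class, with mean ratios from 1.23 in CSA VSMC-like cells to 1.90 in BA fibroblast-like cells, while Col4a1 itself ran from 140.1 in CSA fibroblast-like to 1295 CPM in CSA pericyte-like cells. The starts of Col4a3 and Col4a4 on chromosome 1 are 72 bases apart, and both were highest in pericyte-like cells. The starts of Col4a5 and Col4a6 on chromosome X are 1309 bases apart. That pair was found together in CSA fibroblast-like cells at a ratio of 1.96 ± 0.243 (SD, n = 4) and in VSMC-like cells, where Col4a5 measured 93.3 and 62.9 CPM in CSA1 and CSA2 and 115 and 81.2 in BA1 and BA2. Col4a6 measured 25.7 and 8.85 CPM in CSA1 and CSA2 and 24.4 and 18.7 in BA1 and BA2 there. In BA pericyte-like cells Col4a5 stood at 71.5 ± 38.0 (SD, n = 2) with Col4a6 at 4.50 ± 2.06.

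**Figure D5:**
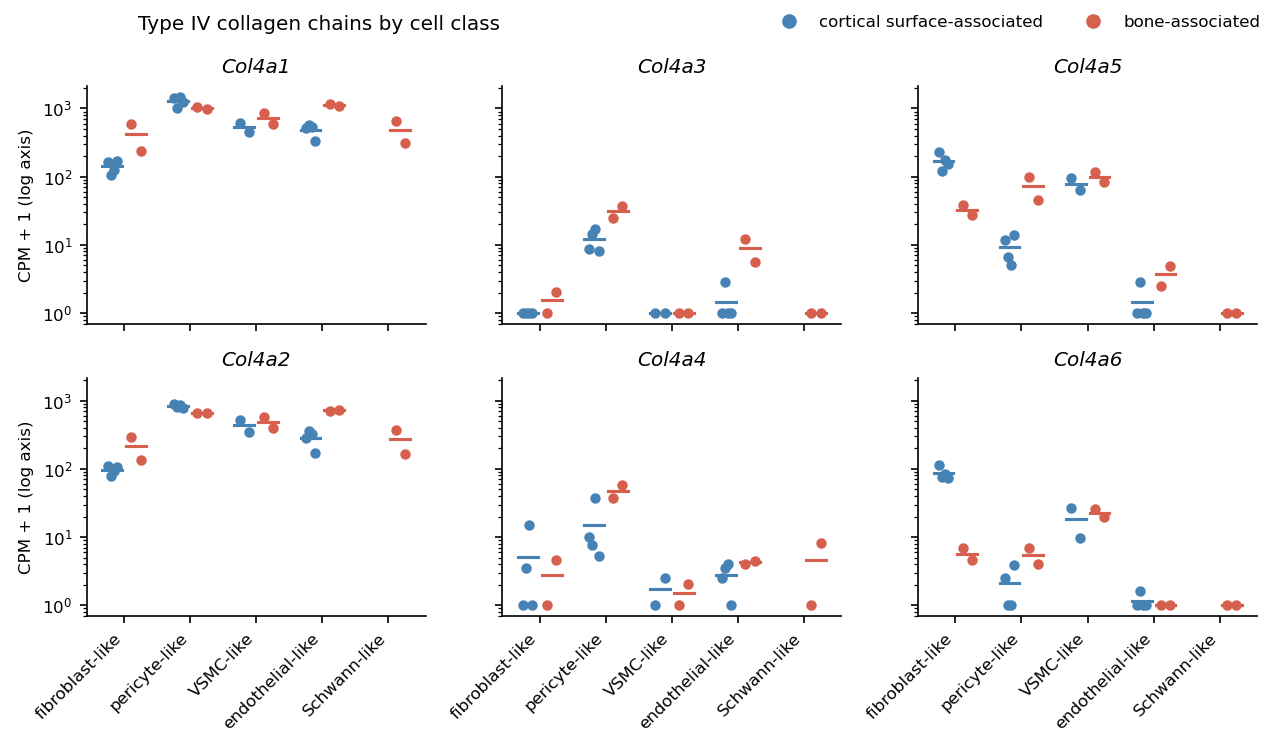
Levels of the 6 type IV collagen genes, as CPM + 1 on a log axis, by cell class, with 1 point per library (blue CSA, red BA) and a bar at the mean. Col4a1 and Col4a2 lie near or above 100 in every class, Col4a3 and Col4a4 are highest in pericyte-like cells, and Col4a5 and Col4a6 are highest in CSA fibroblast-like cells and next highest in VSMC-like and, for Col4a5, BA pericyte-like cells.

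Genes that fold, process, cross-link, bind and degrade collagen were counted in the same fibroblast-like fit. Of 54 listed, 42 were tested, 15 were higher in BA and 0 were lower, against 7.5% and 5.2% of all genes. Their median log2 difference was 1.05, against 0.01 over all genes. Called genes near 0 in CSA could hardly be called lower and carry part of this count and median. These were P4ha3, Adamts3, Fap and Pxdn, at no more than 0, 1.54, 5.59 and 7.98 CPM in any CSA library. Of 16 tested in hydroxylation and folding, 5 rose, namely the prolyl hydroxylases P4ha2, P4ha3 (0 CPM in each CSA library) and P3h3 and the chaperones Serpinh1 and Fkbp10. Serpinh1, which binds procollagen in the endoplasmic reticulum, measured 431, 438, 311 and 351 in CSA1 to CSA4 and 905 and 1238 in BA1 and BA2, a difference of 1.46 (adjusted p = 3.46e-04). Of 4 tested in procollagen processing, Adamts2, Adamts3 and Bmp1, which cleave the ends of procollagen, rose by 2.45, 3.96 and 2.38. The Adamts3 value rests on low counts, at 1.54, 0, 0 and 0 CPM in CSA1 to CSA4 and 2.90 and 9.26 in BA1 and BA2. The cross-linking enzymes Lox, Loxl1 and Pxdn rose by 2.68, 2.21 and 3.63 (3 of 5 tested). Lox measured 29.3, 19.9, 18.6 and 39.9 in CSA1 to CSA4 and 165 and 154 in BA1 and BA2. Of 6 receptors tested, Itga11, a receptor of fibrillar collagen, rose by 1.39 (adjusted p = 0.0478). The degrading enzymes Ctsk, Mmp2 and Fap rose by 1.92, 3.39 and 4.31 (3 of 4 tested). None of 3 secretion genes or 4 basement membrane partners was called. Without BA2, 9 of the list were called.

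The 16 members below the level limit were read by their counts. Of these, 9 had at least 10 UMIs in a group: Col4a3, Col4a4, Col6a6, Col9a3 and Col20a1, given above, and Col7a1, Col9a1, Col11a2 and Col25a1. Col7a1, the anchoring fibril collagen of skin, was at 10.6 ± 3.02 (SD, n = 4) in CSA fibroblast-like cells, and Mir711 overlaps its exons on the same strand. Col25a1, a transmembrane collagen, was at 11.0 ± 1.25 (SD, n = 2) in BA pericyte-like and 9.92 ± 10.3 (SD, n = 4) in CSA fibroblast-like cells. Col11a2, a type XI chain, was highest in Schwann-like cells with 7 UMIs and had 23 UMIs in CSA fibroblast-like cells. Col24a1 had no UMI in any of the 5 classes. Col2a1, Col6a4, Col10a1, Col17a1, Col19a1 and Col22a1 had at most 9 UMIs in a group. Col2a1 of cartilage and Col10a1 of hypertrophic cartilage, with 2 and 0 UMIs, were thus close to absent from BA fibroblast-like cells at this depth.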

How the data were processed

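Single-cell suspensions of the cortical surface and of the inner skull were sequenced with 10x Genomics 3′ chemistry, 1 library per sample. The authors deposited filtered UMI count matrices of genes by cell barcodes, aligned to mm10, with raw counts that were neither normalized nor filtered further per the file headers. The headers name Cell Ranger 6.1.2, whereas the submitters' processing notes name Cell Ranger 3. No column of per-sample values was left unused. The collagen genes, the types and every list were chosen with earlier results of these data known.

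Barcodes with 500 or more genes and no more than 10% of mitochondrial UMIs were kept. Simulated doublets were used to remove 124 barcodes (1.41%), and doublets of like cells can remain. Each preparation was clustered on its own (2000 variable genes, 30 components, 15 neighbours, Leiden resolution 1.5, scikit-learn 1.9.0, leidenalg 0.10.2), with the 44 collagens and the hemoglobin genes left out. A class needed at least 3 of its markers with UMIs in 20% of the cells of a cluster and at a level 2-fold above the other cells, and clusters led by another class's markers were held out, so class names were rebuilt here. Pericyte and smooth muscle clusters that mixed markers stayed unnamed.

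UMI counts were summed per library and class (at least 10 cells), and hemoglobin genes were removed. Genes with a UMI in over 10% of the cells of either preparation were fitted with edgeR 4.0.16 (quasi-likelihood, TMM) on the libraries of 1 class, and p-values were adjusted by Benjamini-Hochberg over all genes tested. Interactions were fitted over the 4 classes with the library as a block. The SE of a log2 difference is its absolute value divided by the square root of the F statistic of the test. It was not fitted directly as the error of the difference. In simulated data of the 4 preparation fits, 94 to 98 of 100 genes changed by 2 on the log2 scale were recovered, and 100 of 100 changed by 3. Between 3 and 9 unchanged genes were called per fit. Changes were placed only in genes above a level limit, so this recovery does not cover members at low levels. Members reaching a mean of 50 CPM in a group were described in every library, others were named with at least 10 UMIs in a group, and pathway genes were named if called. Alternatives were DESeq2 1.42.0, its size factors, other cell filters, a coarser clustering, thinning to 1500 UMIs, each library left out and a replicate block. Counting intervals are exact at 95% and, as UMI counts, cover counting error only. Gene coordinates are GENCODE vM21 on GRCm38.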

Additional observations from a re-analysis of the deposited data

Results flagged for a closer look

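A total of 31 collagen differences between preparations differed from those of fibroblast-like cells by the interaction test at an adjusted p under 0.05. Values are the log2 difference, BA minus CSA, in the named class less that in fibroblast-like cells. In pericyte-like cells the excess was positive for Col1a1 (3.13), Col4a5 (5.44), Col4a6 (6.14), Col6a1 (4.0), Col6a2 (4.38), Col6a3 (3.92), Col13a1 (5.73) and Col23a1 (5.27), and negative for Col4a1 (-1.63), Col4a2 (-1.22), Col5a2 (-1.31) and Col8a1 (-4.60). In VSMC-like cells it was positive for Col1a1 (6.39), Col4a5 (2.79), Col4a6 (4.88), Col6a1 (3.36) and Col23a1 (4.92), and negative for Col3a1 (-1.59), Col5a2 (-1.75), Col5a3 (-4.52) and Col8a1 (-7.25). In endothelial-like cells it was positive for Col4a5 (4.09), Col9a2 (6.76), Col13a1 (6.34), Col15a1 (3.30) and Col23a1 (4.25), and negative for Col3a1 (-5.38), Col5a2 (-2.43), Col8a1 (-6.71), Col14a1 (-7.76) and Col18a1 (-1.65). All these comparisons share the fibroblast-like libraries. Members with few UMIs in a class have values that depend on the prior count of the fit, such as Col9a2 in endothelial-like cells (2 UMIs) and Col4a6 in pericyte-like cells (8 UMIs). The same holds where 1 preparation has few UMIs, such as Col1a1 in CSA VSMC-like cells (3 UMIs) and Col5a3 in CSA fibroblast-like cells. The Col9a2 value (adjusted p = 0.0483) was lost when any library other than BA1 was left out. Further values were lost under some alternatives. In VSMC-like cells these included Col3a1 by DESeq2 (-1.47, adjusted p = 0.333) and without CSA1 or CSA2, and Col5a3 without CSA1 or BA2. In pericyte-like cells they included Col4a1 without BA1 (-1.01), Col4a2 without CSA2 (-1.09, adjusted p = 0.0643) or BA1 (-0.68), and Col4a6 and Col13a1 without BA2. The endothelial-like Col5a2 and Col8a1 values rest on a class that held cluster CSA-24 but not BA-7, which shares its leading genes. The Col18a1 value in endothelial-like cells was -1.20, adjusted p = 0.0712 without CSA1 and -0.03, adjusted p = 1 with cluster BA-7 added to the class.

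One library stood away from its group. Col15a1 in fibroblast-like cells was at 95.7 CPM in CSA4, which held 23 such cells, and at 55.7 to 58.7 in CSA1 to CSA3. Its gap exceeded Dixon's critical value (95%) for 4 samples, in 1 of 26 groups of 4 tested, and chance alone gives about 1 in 20.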

How the results depend on the processing

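Over all alternatives the number of collagens called ran from 19 to 25 in fibroblast-like, 7 to 16 in pericyte-like, 3 to 10 in VSMC-like and 2 to 8 in endothelial-like cells, and of pathway genes from 7 to 20. Leaving out each library in turn gave 22 to 24, 11 to 14, 7 to 8 and 3 to 5 collagens, 9 to 15 pathway genes, and 9 to 12, 7 to 10 and 7 to 10 interactions in pericyte-like, VSMC-like and endothelial-like cells. Counts moved by over 1.5 times with cells thinned to 1500 UMIs, where fewer genes could be tested (7 in pericyte-like cells, 3 in VSMC-like cells, 5 VSMC-like interactions and 7 pathway genes), in endothelial-like cells by DESeq2 (2) and with no filter on low counts, where more genes were tested (8), and in the pathway without BA2 (9). With up to 20% mitochondrial UMIs, Col3a1 in VSMC-like cells turned to -1.31, adjusted p = 3.36e-04, and the interactions of Col12a1 and Col14a1 in VSMC-like cells turned to -2.21, adjusted p = 0.0153 and -4.72, adjusted p = 0.0284. Without the Gpihbp1-led clusters, the Col4a2 interaction in endothelial-like cells turned to -1.06, adjusted p = 0.0315. The cause was not tested. Among values of single genes, 3157 kept their side of the threshold, 96 lost a call, 72 gained one and 4 turned with a call on 1 side. Of those that kept their side, 100 changed sign without a call on either side, 2 of them at an adjusted p under 0.05 (Col18a1 in endothelial-like cells with BA-7 added and Col3a1 in the largest VSMC-like clusters, given above). No scaling moved the median of all genes by 0.1 on the log2 scale.

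With replicate numbers as a block, 23, 14, 8 and 3 collagens and 13 pathway genes were called. At most 2 numbers were shared by the preparations, and deviations of same-numbered libraries correlated at 0.0675 to 0.365 (positive in each class and number). The labels name no shared origin, and with 2 pairs or fewer the numbers were not taken as pairs. The endothelial-like call lost under the block was Col4a2 (1.25, adjusted p = 4.62e-04).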

Other observations

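A pair of unnamed clusters of the BA libraries also held collagens. Cluster BA-21 (84 cells, led by Chad, Cilp2, Scx and Comp) expressed 7 of 7 fibroblast markers and was held out of the fibroblast-like class because its 10 leading genes held a chondrocyte marker, Comp, and no fibroblast marker. Comp was also among those of CSA-29, which stayed in the class because the fibroblast marker Mfap4 was there too. BA-21 held Col1a1 at 6996 and Col1a2 at 5643 CPM, with Col12a1 at 856 and Col8a2 at 492. With these cells added to the fibroblast-like class, 22 collagens were called, the Col1a1 difference rose from 2.14 to 3.01, adjusted p = 1.49e-06, and the Col4a1 difference was 1.19, adjusted p = 0.01. Cluster BA-7 (148 cells, led by Gkn3, Gja5, Cytl1 and Sema3g, genes of arterial endothelium) expressed 7 endothelial markers and was held out because its 10 leading genes held a neuron marker, Stmn2, and no endothelial marker. BA-7 held Col8a1 at 261 and Col18a1 at 244 CPM. These values are descriptions of clusters, with no test.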
